A study of Oryza sativa with 8 samples.

Results

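Metallothioneins are small cysteine-rich proteins that bind zinc, copper and cadmium through the sulphur of their cysteines. They buffer these metal ions in the cell, and their thiol groups can also react with reactive oxygen species. Plant metallothioneins are sorted into types by how the cysteines are spaced, and rice carries several metallothionein genes. The members were all probe sets of an Affymetrix rice array annotated, by symbol or synonym with the Os prefix removed, to MT1A, MT1B, MT2A, MT2B, MT2C, MT3A or MT3B. Of these 7 names, 5 were matched, and MT3A and MT3B were not matched and are not analysed here. The matched names led to 6 loci, of 17905 genes that the array's annotation names. They had 16 probe sets of 57194 on the array, and 15 of the 16 were bright enough to be tested.

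The names of rice metallothioneins overlap between naming systems, so each locus is called here by its name without the Os prefix. MT1A is LOC4351213, MT1B is LOC4332487, MT2A is LOC4325218, MT2B is LOC4326409 and MT2C is LOC4337596. OsMT2b is a synonym of MT2C and OsMT2c a synonym of MT2B. The sixth locus, LOC4352580, was matched because OsMT1b is one of its synonyms. Its other name is MT4A, which is used below. MT4A also had 1 probe set shared with another gene, which is not described.

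RNA came from shoots and leaves of seedlings of cultivar Zhonghua 11 at the 4-leaf stage, grown in potting soil. The 4 groups of 2 arrays were OE cold, OE normal, ZH11 cold and ZH11 normal. OE plants carried an OsTMF overexpression construct. Each OE group held 1 array of line OE-24 (replicate 1) and 1 of line OE-29 (replicate 2), so a line has no replicate of its own within a treatment. ZH11 plants were wild type, with independent biological replicates. Cold arrays were taken after 24 h in a chamber at a constant 4 °C with a light and dark cycle, and normal arrays before the move, so growth over that day and the new surroundings cannot be told apart from the cold. The sources used here do not give the promoter of the transgene, and OsTMF itself was not matched to a probe set and is not analysed here. With 2 arrays per group, p-values rest on the spread within groups of these arrays, pooled over the 4 groups and moderated in limma across all tested probe sets. In OE that spread also holds the difference between the lines. Groups of 2 arrays can fail to overlap without a call, and the share of all tested probe sets that did so was not computed.

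Array medians lay between 27.2 and 28.2. Signals were compared as log2(signal + 16), a call needed a Benjamini-Hochberg adjusted p under 0.05 over 34313 tested probe sets in limma, and errors after ± are standard errors on that log2 scale. Of 6 tested leaf and shoot marker loci, 4 fell in the cold in each genotype, 1 rose (RCA, Rubisco activase) and 1 did not pass (RBCS, the small subunit of Rubisco). Among all tested probe sets 31.8% were called lower in OE and 34% in ZH11, and 22.9% and 26.3% higher. The chlorophyll-binding protein genes LHCP and CAB2R changed by -3.72 and -3.24 in OE and by -3.67 and -3.39 in ZH11 on the log2 scale (limma), beyond any metallothionein. RBCS had mean signals of 14714 in OE cold, 14787 in OE normal, 14440 in ZH11 cold and 15040 in ZH11 normal. The summed signal of that marker list was 41057 to 41545 in OE cold, 67740 to 70572 in OE normal, 43252 to 45792 in ZH11 cold and 68568 to 71771 in ZH11 normal. Root markers (3 loci on the array, LSI1, LSI2 and SHR1) summed to 294.1 to 313 in OE cold and 208.5 to 213 in ZH11 cold. Their sums were 184 to 275 in OE normal and 174 to 195 in ZH11 normal. Seed markers (5 loci) summed to 609 to 623 in OE cold, 792 to 886 in OE normal, 619 to 633 in ZH11 cold and 973 to 1077 in ZH11 normal. Flower and pollen markers (9 loci) summed to 627 to 690 in OE cold, 773 to 823 in OE normal, 714 to 741 in ZH11 cold and 804 to 828 in ZH11 normal. Of these loci 2 root, 2 seed and 5 flower and pollen markers were bright enough to be tested. A sum above 0 does not show that a list was expressed. No meristem marker was matched. The part of these shifts in the results below was not tested. In bulk RNA, fewer cells of a type and less RNA per cell cannot be told apart.

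After chilling, 5 of the 6 metallothionein loci had lower signals in both genotypes on their brightest probe set, and MT2C moved furthest. In OE, 12 of the 15 tested probe sets fell, 0 rose and 3 did not pass (limma, where 12 had an unadjusted p under 0.05). Of all 34313 tested probe sets, 20257 had an unadjusted p that low. Over all tested probe sets 54.8% were called, 31.8% lower and 22.9% higher. In ZH11, 11 fell, 1 rose and 3 did not pass, where 60.3% of all tested probe sets were called, 34% lower and 26.3% higher. The median log2 change of the members was -0.54 in OE and -0.59 in ZH11, beside -0.01 and 0.01 over all tested probe sets. Most members were far brighter than most tested probe sets. When only probe sets above the 60th percentile of mean signal were tested, the median over all of them was -0.08 in OE and -0.12 in ZH11. Of these, 67.4% were called in OE and 71.8% in ZH11. The brightest probe set of each locus ranked between 94.3 and 99.9% of the array by mean signal. That filter therefore did not match the members for brightness, and a closer match was not made. Several of these probe sets report the same locus, so the counts are not counts of genes. The tested loci with at least 1 probe set lower in both genotypes were MT1A, MT2A, MT2B, MT2C and MT4A.

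**Figure D1:**
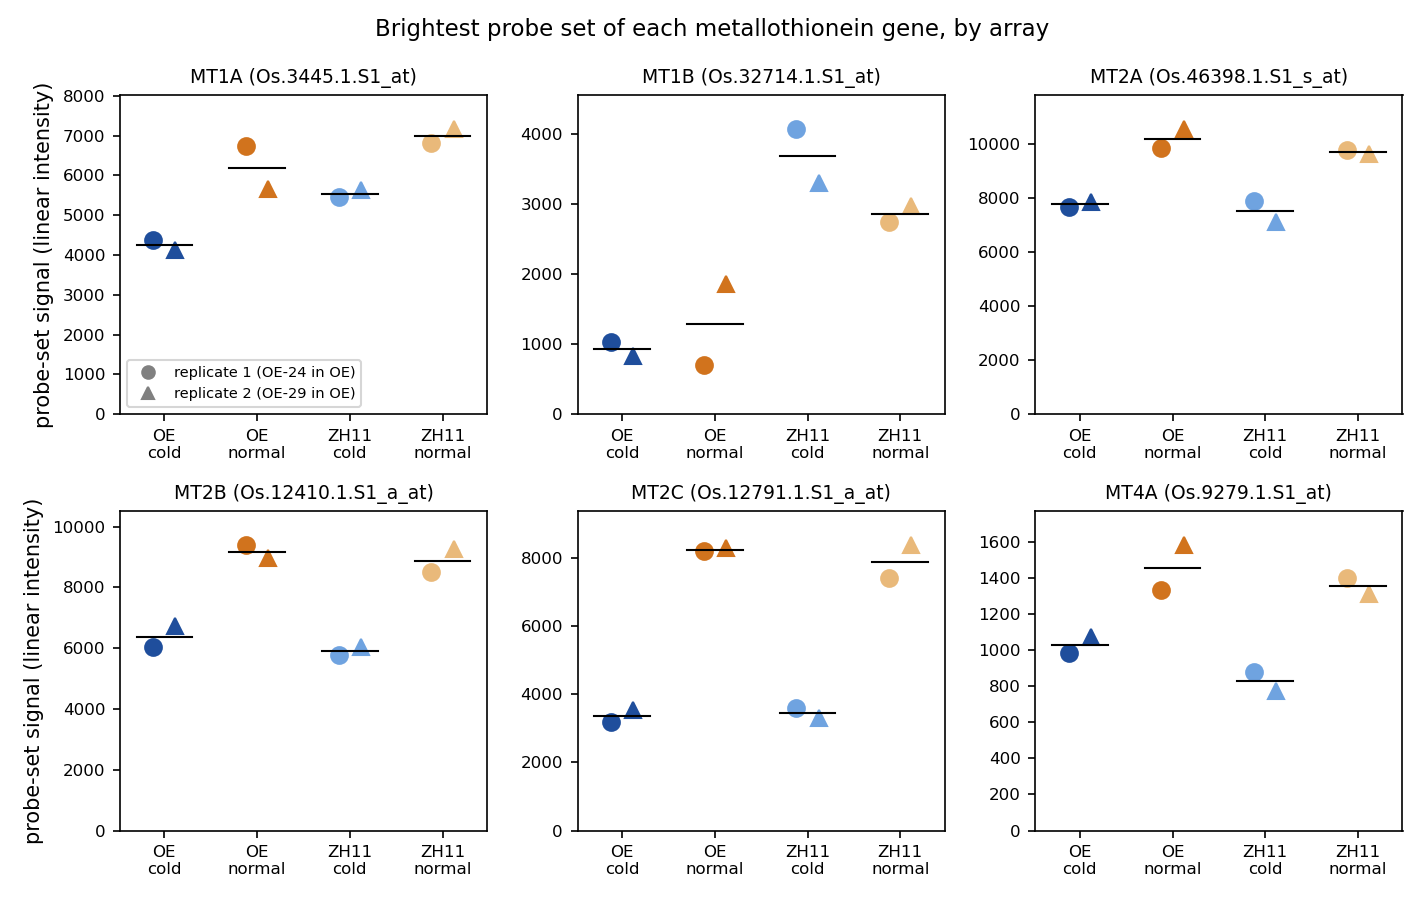
Probe-set signal on a linear scale for the brightest probe set of each locus, in 4 groups of 2 arrays. Circles are replicate 1 and triangles replicate 2, which in OE are lines OE-24 and OE-29, and horizontal lines are group means. MT2C lies between 3184 and 3598 on the cold arrays and between 7410 and 8360 on the normal arrays, and MT1B is lower on every OE array than on every ZH11 array.

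MT2C, a type 2 gene, is the locus called OsMT2b in earlier work, where its product was described as a scavenger of reactive oxygen in rice. Its brightest probe set had signals of 3184 and 3531 in OE cold, against 8186 and 8286 in OE normal. In ZH11 the same probe set had 3598 and 3286 in the cold, against 7410 and 8360 before it. Cold and normal arrays did not overlap in either genotype. The share of all tested probe sets that did so was not computed, here or for the loci below. The log2 change was -1.29 ± 0.08 in OE (limma adjusted p = 2.43e-07), a 2.45-fold lower level, and -1.19 ± 0.08 in ZH11 (adjusted p = 3.69e-07), 2.28-fold lower. All 5 probe sets of MT2C fell in both genotypes, by -1.29 to -1.02 in OE and by -1.19 to -0.85 in ZH11. Each of these calls was kept in every alternative fit, including those that left out 1 array.

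MT2B, another type 2 gene, fell less. Its brightest probe set had 6026 and 6725 in OE cold, against 9380 and 8961 in OE normal, and 5771 and 6044 in ZH11 cold, against 8495 and 9257 in ZH11 normal. The arrays of the 2 treatments stayed apart in both genotypes. The change was -0.53 ± 0.07 in OE (limma adjusted p = 8.1e-05) and -0.59 ± 0.07 in ZH11 (adjusted p = 3.19e-05), or -0.37 and -0.39 after median centring, both still called. The other bright probe sets of MT2B gave -0.62 and -0.56 in OE, and -0.72 and -0.59 in ZH11. The remaining probe set of MT2B was dim, at 21.1 and 19.9 in OE cold, 30.9 and 31.6 in OE normal, 39.2 and 34.3 in ZH11 cold, and 25.5 and 24.7 in ZH11 normal. These signals are near the array medians and did not follow the bright probe sets. It fell by 0.37 in OE (adjusted p = 0.00449) and rose by 0.36 in ZH11 (adjusted p = 0.0052). The size of these changes depended on the processing, from -0.59 to -0.17 in OE and from 0.18 to 0.56 in ZH11 over the alternative fits. After median centring its fall in OE was not called (-0.22, adjusted p = 0.0658).

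MT2A was read by probe sets that disagreed. The brightest, whose probes several genes can share, had 7687 and 7860 in OE cold, against 9856 and 10548 in OE normal, and 7896 and 7111 in ZH11 cold, against 9780 and 9634 in ZH11 normal. It fell by 0.39 ± 0.06 in OE (limma adjusted p = 0.000347) and by 0.37 ± 0.06 in ZH11 (adjusted p = 0.00044) in the cold, without overlap between treatments. After median centring these changes were -0.24 and -0.18, both still called. A dimmer probe set, with signals of 202 to 320, gave -0.27 ± 0.15 in OE and 0.02 ± 0.15 in ZH11, neither of them called. In OE its lines differed, with 202 in the cold and 320 before it in OE-24, and with 231 and 218 in OE-29. Without OE normal replicate 2 the change in OE was -0.53 (adjusted p = 0.00248). Another, at 29.7 to 46.5, gave -0.03 in OE and 0.12 in ZH11, and the remaining one, at 7.7 to 17.4, was too dim to test. In the array's naming, a suffix with s marks probes shared by transcripts of different genes and one with x marks probes that may cross-hybridise. The suffix s was carried by 1 and x by 6 of the 16 member probe sets, and whether the type 2 probe sets read separate transcripts was not tested.

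MT1A, a type 1 gene known in rice as induced by zinc, also fell. Its only probe set had 4374 and 4134 in OE cold, against 6739 and 5653 in OE normal. In ZH11 it had 5448 and 5629 in the cold, against 6825 and 7161 before it. The change was -0.54 ± 0.08 in OE (limma adjusted p = 0.000196) and -0.34 ± 0.08 in ZH11 (adjusted p = 0.00409), and cold arrays lay below normal arrays in each genotype. The call in ZH11 depended on scaling, with -0.14 (adjusted p = 0.24) after median centring. That scaling placed the median change of all tested probe sets at 0.14 in OE and 0.20 in ZH11. Relative to all tested probe sets the median of the members was -0.53 in OE and -0.60 in ZH11. Median centring cannot change these values, since it shifts every probe set of an array by the same amount. With quantile normalization they were -0.55 and -0.62.

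MT4A, the sixth locus, followed the same direction. Its probe set had 986 and 1075 in OE cold, against 1335 and 1579 in OE normal, and 879 and 774 in ZH11 cold, against 1401 and 1308 in ZH11 normal. It fell by 0.49 ± 0.10 in OE (limma adjusted p = 0.00147) and by 0.70 ± 0.10 in ZH11 (adjusted p = 0.000106), without overlap between treatments. The difference between these changes, OE minus ZH11, was 0.21 ± 0.14 and did not pass (adjusted p = 0.535, 95% confidence interval -0.09 to 0.52).

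**Figure D2:**
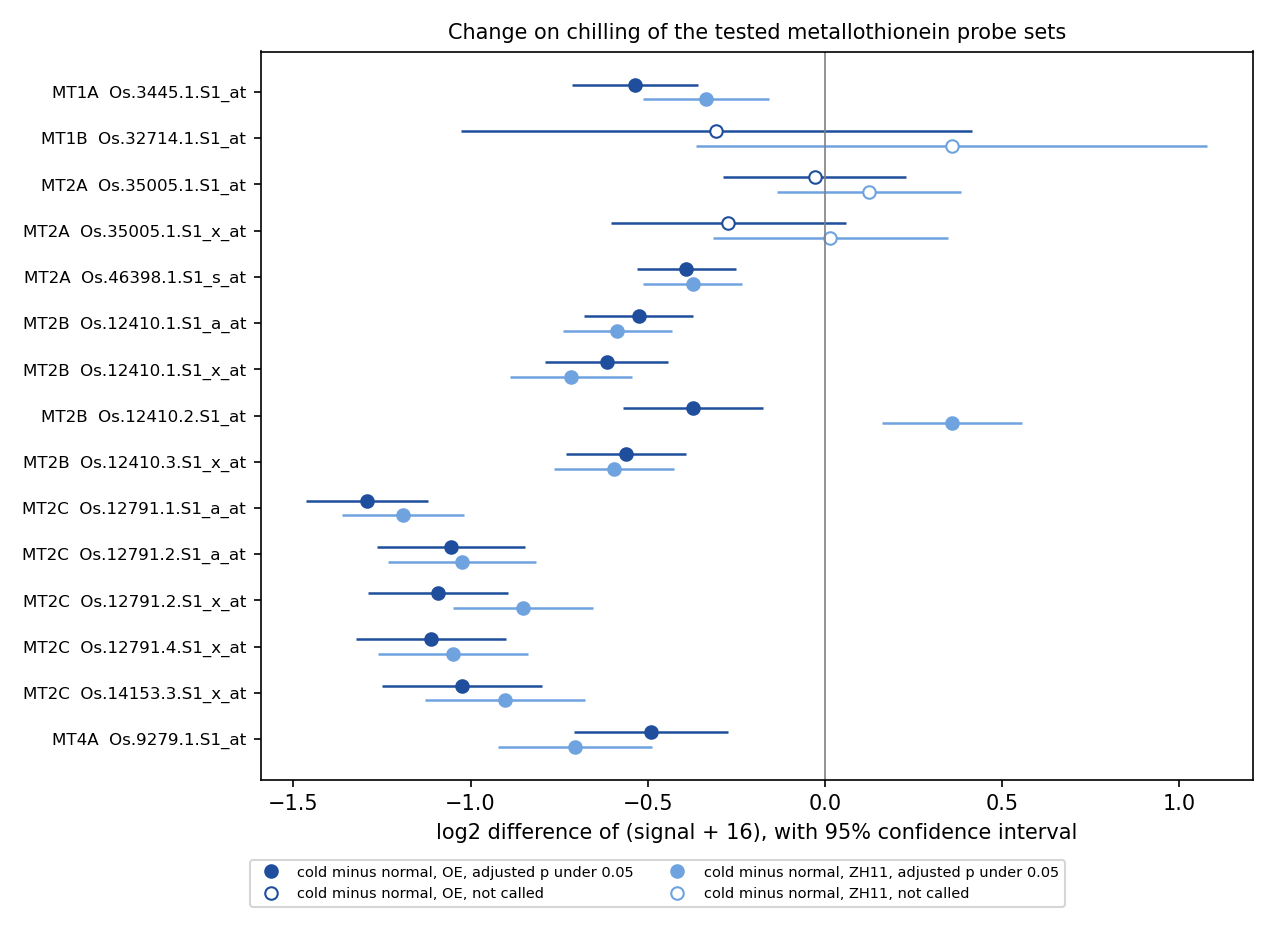
Log2 change on chilling (cold minus normal, of signal + 16) for the 15 tested probe sets, OE above ZH11 in each row, with 95% confidence intervals from limma. Filled points have an adjusted p under 0.05. The 5 probe sets of MT2C lie between -1.29 and -0.85, the intervals of MT1B span 0 in both genotypes, and the dim probe set of MT2B is called in opposite directions.

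MT1B, also a type 1 gene, did not pass for cold in either genotype, and its levels went with the genotype. Its only probe set had signals of 1034 and 829 in OE cold and 709 and 1856 in OE normal. In ZH11 cold it had 4070 and 3304, and in ZH11 normal 2743 and 2975. In OE the treatments overlapped, and in ZH11 both cold arrays lay above both normal arrays. All 4 OE arrays lay below all 4 ZH11 arrays, a pattern seen in 1.43% of all tested probe sets. The cold change was -0.31 ± 0.32 in OE (limma adjusted p = 0.455, 95% confidence interval -1.03 to 0.41) and 0.36 ± 0.32 in ZH11 (adjusted p = 0.359, interval -0.36 to 1.08).

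The OE lines did not agree on the response of MT1B to cold. In OE-24 the signal was 1034 in the cold and 709 before it, a log2 difference of 0.53. In OE-29 it was 829 in the cold and 1856 before it, a difference of -1.15. Before cold the lines were 1.37 apart on the log2 scale, after cold 0.31, while the ZH11 replicates were 0.12 and 0.30 apart before and after cold. Without OE normal replicate 1 the cold change in OE was -0.99 (limma adjusted p = 0.000541), and without OE normal replicate 2 it was 0.38 (adjusted p = 0.0645). Either omission also narrowed the shared spread, so that the cold change of 0.36 in ZH11 was called (adjusted p = 0.0293 and 0.0298). With 1 array per line and treatment, line and array cannot be told apart.

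**Figure D3:**
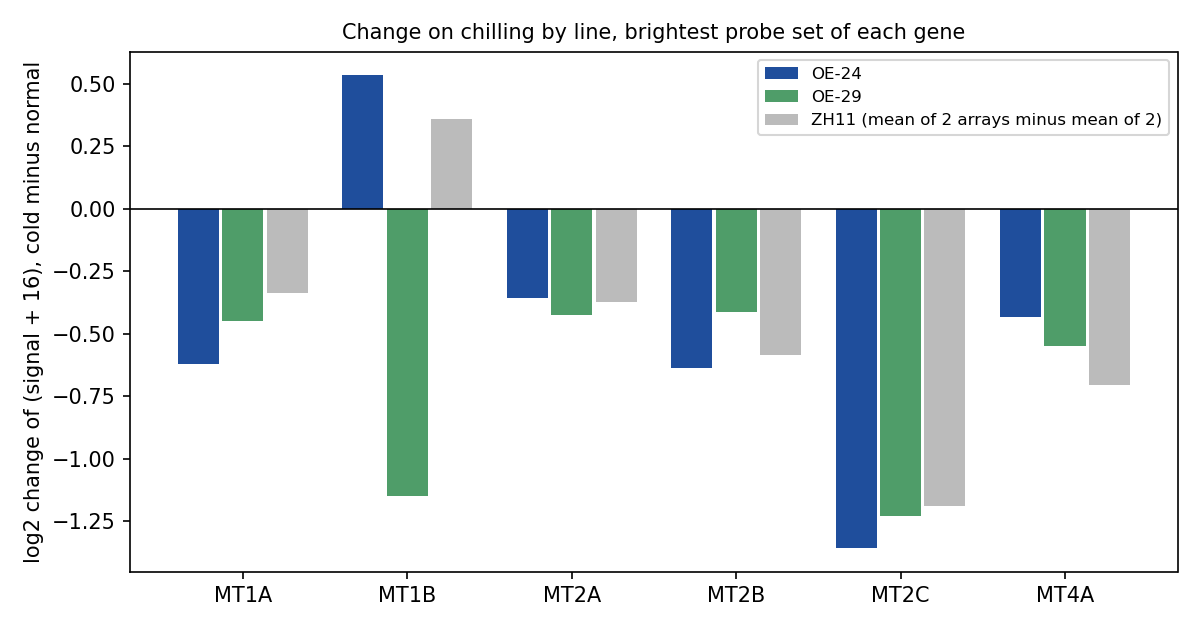
Log2 change on chilling of the brightest probe set of each locus, with OE-24 and OE-29 each as 1 cold array minus 1 normal array, beside ZH11 as the mean of 2 cold arrays minus the mean of 2 normal arrays. Bars start at 0 and carry no error, since each line has 1 array per treatment. MT1B is at 0.53 in OE-24 and -1.15 in OE-29, and the other 5 loci are below 0 in every column.

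Comparing genotypes after cold asks which members differed once both had been chilled. Of the 15 tested probe sets, 3 were lower in OE (MT1B, MT1A and the dim MT2B probe set), 0 were higher and 12 did not pass, where 13.1% of all tested probe sets were called, 4.95% lower and 8.16% higher. At an unadjusted p under 0.05 limma gave 7 of the members, beside 9953 of all 34313 tested probe sets. The median of the members was 0.00, as over all tested probe sets (0.01). MT1B was lower in OE by 3.91-fold, with means of 931 in OE cold and 3687 in ZH11 cold and a log2 difference of -1.97 ± 0.32 (adjusted p = 0.0043). Relative to the ZH11 mean, OE-24 was at -1.81 and OE-29 at -2.12 on the log2 scale. Without ZH11 cold replicate 1 the difference was -1.82 and the adjusted p 0.0523, and the call was kept in the other 16 alternative fits.

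MT1A was lower in OE after cold by a smaller step, -0.38 ± 0.08 (means 4254 in OE cold and 5539 in ZH11 cold, limma adjusted p = 0.0134). Its arrays did not overlap, at 4374 and 4134 in OE cold against 5448 and 5629 in ZH11 cold. The call was lost without ZH11 cold replicate 1 (adjusted p = 0.0757), ZH11 cold replicate 2 (0.0961) or OE cold replicate 2 (0.078). The dim MT2B probe set differed by -0.53 ± 0.09 (adjusted p = 0.00462, or 0.0508 without ZH11 cold replicate 1). With pseudocounts of 1 and 64 that difference was -0.81 and -0.25, called in both.

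No bright type 2 probe set passed after cold. The 5 probe sets of MT2C differed by -0.13 to 0.05 between OE and ZH11 (limma adjusted p = 0.383 to 0.985), and the interval for the brightest ran from -0.21 to 0.14. The second-brightest probe set of MT2B had 4562 and 5159 in OE cold, against 4221 and 3896 in ZH11 cold, a difference of 0.26 ± 0.08 (adjusted p = 0.055). MT4A differed by 0.31 ± 0.10 (adjusted p = 0.0607). Neither passed. For both the arrays did not overlap, but between groups of 2 arrays the share of all tested probe sets that do so was not computed. In OE the replicate number is the line, and another fit took the line as a replicate block within OE. That block left both differences unchanged and took the difference between the lines out of the spread. Both were then called (limma adjusted p = 0.0355 and 0.0311), which gave 5 called members in place of 3. Calls over all tested probe sets rose too, to 14.8% from 13.1%. Quantile normalization (adjusted p = 0.0413) and a filter at the 60th percentile (0.0467) also called the MT2B probe set. The dimmer MT2A probe sets differed by -0.40 and -0.33 without passing (adjusted p = 0.105 and 0.0871). Whether they and MT4A passed depended on the OE normal arrays, which are not part of the comparison after cold. Leaving out either of those arrays changed the pooled spread and not these differences.

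**Figure D4:**
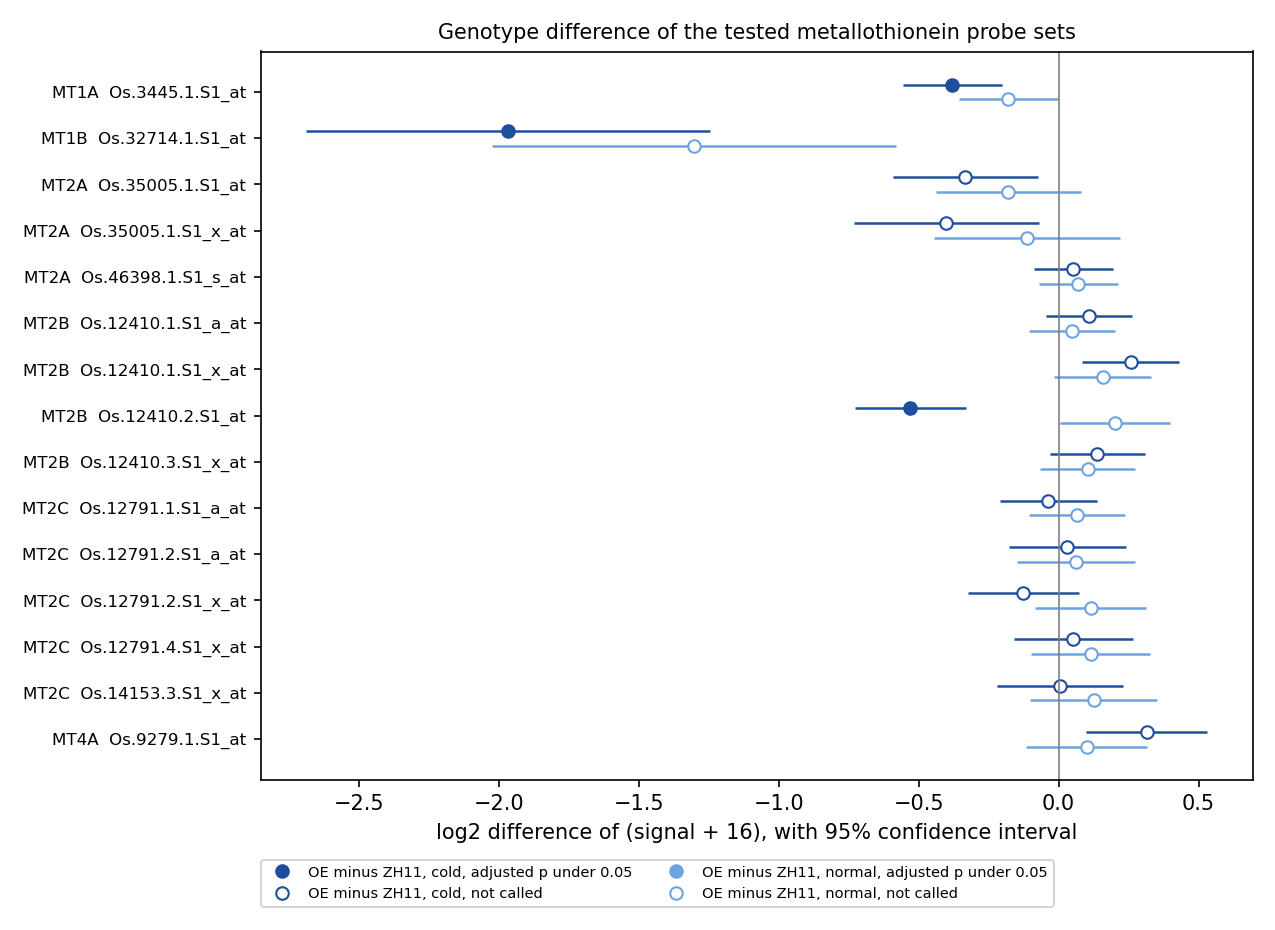
Log2 difference between genotypes (OE minus ZH11, of signal + 16) for the 15 tested probe sets, after cold above before cold in each row, with 95% confidence intervals from limma. Filled points have an adjusted p under 0.05. MT1B lies at -1.97 after cold and -1.30 before cold, and the 5 probe sets of MT2C lie between -0.13 and 0.12.

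Before cold, 0 of the 15 tested members passed in limma, where 1.2% of all tested probe sets were called, 0.775% higher and 0.423% lower. At an unadjusted p under 0.05 there were 3, MT1B, MT1A and the dim MT2B probe set. Of all 34313 tested probe sets, 3175 had an unadjusted p that low. MT1B had means of 1282 in OE normal and 2859 in ZH11 normal, a difference of -1.30 ± 0.32 (adjusted p = 0.121, 95% confidence interval -2.02 to -0.58). The lines were far apart, with OE-24 at -1.99 and OE-29 at -0.62 relative to the ZH11 mean on the log2 scale. Without OE normal replicate 2, the array of OE-29, the difference was -1.99 (adjusted p = 0.00113). MT1A differed by -0.18 ± 0.08 (adjusted p = 0.531), the dim MT2B probe set by 0.20 ± 0.09 (adjusted p = 0.525) and the MT2C probe sets by 0.06 to 0.12 (adjusted p = 0.842 to 0.945).

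Averaged over both treatments, with 4 arrays per genotype, MT1B was 3.11-fold lower in OE, a log2 difference of -1.63 ± 0.23 (limma adjusted p = 0.00203), and this call was kept in all 17 alternative fits. MT1A was also lower, at -0.28 ± 0.06 (limma adjusted p = 0.0124, or 0.0594 without ZH11 cold replicate 2). The second-brightest MT2B probe set was higher by 0.21 ± 0.06 (adjusted p = 0.0402), a call kept in 10 of 17 alternative fits. The fits that lost it left out ZH11 normal replicate 1, ZH11 cold replicate 1 or 2, OE normal replicate 2 or OE cold replicate 2, with adjusted p from 0.0733 to 0.154. It was also lost after median centring (0.101) and without the trend (0.104). With the line as a replicate block MT4A was called too (0.21, limma adjusted p = 0.0461, or 0.0894 without the block). With that block 11.8% of all tested probe sets were called. Without OE normal replicate 1 the difference over both treatments was 0.27 for MT4A, and -0.39 and -0.32 for the dimmer MT2A probe sets. Over all tested probe sets 9.97% were called in this comparison, 4.1% lower and 5.87% higher.

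The test of whether cold acted differently in OE and ZH11 called 1 of 15 members, the dim MT2B probe set at -0.73 ± 0.13 (limma adjusted p = 0.0242), where 1.13% of all tested probe sets were called, 0.405% lower and 0.726% higher. Its size depended on the pseudocount, at -1.12 with a pseudocount of 1 and -0.35 with 64, with the call kept in both. It lost the call in 7 of the 8 fits that left out 1 array (adjusted p = 0.0501 to 0.128). For MT1B the interaction was -0.67 ± 0.46 (adjusted p = 0.566, 95% confidence interval -1.69 to 0.35). It was -1.35 (adjusted p = 0.0204) without OE normal replicate 1 and 0.02 (adjusted p = 0.968) without replicate 2. The 5 MT2C probe sets had interactions of -0.24 to -0.03 without a call.

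Loci with a similar course over the 8 arrays were sought among 2176 other named loci, by the mean absolute difference between profiles after each was centred on its own mean. This is a description, made for members whose signals spanned at least 2-fold. The nearest to MT1B was the locus listed as MS (LOC9268154), at a mean distance of 0.22 on the log2 scale. MS was at -1.84 after cold and -1.58 before cold in OE against ZH11. The next, MIF3, a mini zinc finger gene, was further off, at 0.43. MT2C was followed closely by ArsM1 at 0.06 and by CCAMK, a calcium- and calmodulin-dependent kinase gene, at 0.07. The nearest to MT4A were ACBP4, an acyl-CoA-binding protein gene, at 0.04 and EGY2 at 0.05.

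Other genes of metal handling, such as transporters of zinc, copper and iron and enzymes that make metal chelators, were measured at 27 tested loci. In OE 6 rose in the cold, 14 fell and 7 did not pass, and the counts in ZH11 were also 6, 14 and 7. Over all tested probe sets 54.8% were called in OE (31.8% lower, 22.9% higher) and 60.3% in ZH11 (34% lower, 26.3% higher). The median change of the list was -0.58 in OE and -0.47 in ZH11, beside -0.01 and 0.01 over all tested probe sets. NAS2, a nicotianamine synthase gene, had the largest called rise in both, 1.70 ± 0.12 in OE (means 105 in OE cold and 21 in OE normal, limma adjusted p = 6.72e-07) and 1.18 ± 0.12 in ZH11 (adjusted p = 9.02e-06). Its signal before cold was near the array medians, where log2(signal + 16) understates a fold change. The largest called falls were those of its paralogue NAS3 in OE, -1.98 ± 0.31 (adjusted p = 0.000258), and of the zinc transporter gene ZIP4 in ZH11, -2.17 ± 0.11 (adjusted p = 6.07e-08). After cold, 2 of the 27 were higher in OE, the vacuolar iron transporter gene VIT1 most at 0.54, and 3 were lower, the manganese and cadmium transporter gene NRAMP5 most at -0.61, where 13.1% of all tested probe sets were called. Before cold 1 was higher, LOC4342782, a zinc transporter gene listed as ZIP1 and as ZIP8, at 0.86. Of all tested probe sets 0.775% were called higher before cold. Over both treatments 4 were higher, LOC4342782 most at 0.54, and 3 were lower, VIT2 most at -0.61. The shares of all tested probe sets called over both treatments were 5.87% higher and 4.1% lower.

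Genes that make or remove reactive oxygen species were measured at 18 tested loci. In OE 4 rose in the cold, 8 fell and 6 did not pass. In ZH11 3 rose, 11 fell and 4 did not pass. The shares called over all tested probe sets were again 54.8% in OE and 60.3% in ZH11, with 31.8% and 34% lower. The list's median changes were -0.17 in OE and -0.36 in ZH11. The mitochondrial alternative oxidase gene AOX1A rose most, by 1.80 ± 0.09 in OE (limma adjusted p = 7.09e-08) and 2.31 ± 0.09 in ZH11 (adjusted p = 1.09e-08). The cytosolic ascorbate peroxidase gene APX2 had the largest fall, -1.64 ± 0.06 in OE (adjusted p = 1.27e-08) and -2.02 ± 0.06 in ZH11 (adjusted p = 3.15e-09). APX7, another ascorbate peroxidase gene, was the most raised in OE over ZH11, by 0.82 ± 0.09 after cold (adjusted p = 0.000431) and 0.49 ± 0.09 before cold (adjusted p = 0.0259), and it was one of 2 loci of 18 higher in each, where 8.16% of all tested probe sets were called higher after cold and 0.775% before cold. Over both treatments 3 loci were higher in OE, APX7 most at 0.65, and 1 was lower, the catalase gene CATB at -0.21. In that comparison 5.87% of all tested probe sets were called higher and 4.1% lower.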

How the data were processed

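The authors deposited 1 linear intensity per probe set and array. Per the labels' protocols, biotinylated cRNA was made from total RNA for Affymetrix arrays. How probes were summarised and arrays scaled is not given in the sources used here. Names came from the platform's probe annotation, with synonyms taken from a RefSeq gene table of assembly ASM3414082v1. Of 57194 probe sets, 22436 had 1 gene.

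Probe sets with a mean signal above the 40th percentile were tested. A group-means model over all 8 arrays (4 residual degrees of freedom) was fitted to log2(signal + 16) with limma 3.58.1 (lmFit, eBayes with a trend) in R 4.3.3, and p-values were adjusted over all tested probe sets for each of 6 two-sided comparisons. The number of arrays limits the precision. Alternatives were pseudocounts of 1 and 64, quantile normalization, median centring, no filter, a 60th percentile filter, no trend, 2 replicate blocks, and each array left out. The procedure was run on simulated data only for OE against ZH11 after cold. Those data held no cold effect and no line effect, so the run does not bear on the other comparisons.

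All member probe sets were to be named. For each of the 2 gene lists the largest called change per direction was named, and for likeness the 2 nearest named loci. A locus on a list was read by its brightest tested probe set, and a list name that matched several loci counted each. The members and lists were chosen with earlier results of these data known. The replicate number is the line in OE, and the difference between the lines before cold had a correlation of 0.128 with that after cold across 34313 probe sets. ZH11 replicates share no plants, and theirs was -0.02.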

Additional observations from a re-analysis of the deposited data

Results flagged for a closer look

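The dim MT2B probe set was picked out because its cold response differed between genotypes by the interaction test, at -0.73 on the log2 scale (limma adjusted p = 0.0242). The size depended on the pseudocount, from -1.12 to -0.35 over the alternative fits, and on fits with 1 array left out it ran from -0.80 to -0.66. Its signals were 21.1 and 19.9 in OE cold, 30.9 and 31.6 in OE normal, 39.2 and 34.3 in ZH11 cold, and 25.5 and 24.7 in ZH11 normal. The bright MT2B probe sets had interactions of 0.06, 0.10 and 0.03, none of them called.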

How the results depend on the processing

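Of 1518 member values under alternatives, 1426 kept their sign and their side of the threshold, 22 lost a call and 20 gained one. A further 50 changed sign without a call in either fit, and no value changed sign with a call. Counts of called members in the cold comparisons stayed within 1.5 times of the reported ones. With 1 array left out, the count ran from 0 to 6 after cold, 0 to 1 before cold, 1 to 6 over both treatments and 0 to 2 for the interaction, beside reported counts of 3, 0, 3 and 1. The filter at the 60th percentile left 0 members called for the interaction, because the probe set concerned was then not tested. The replicate block within OE gave 5 members after cold, where it called 14.8% of all tested probe sets. It changed no call of a member in the cold, before-cold and interaction comparisons. The block over all arrays changed none. Over all tested probe sets, calls after cold were 4500, and 1147 to 6323 with 1 array left out, lowest without ZH11 cold replicate 1. With 1 array left out they were 152 to 835 before cold (411 with all arrays), 71 to 477 for the interaction (388) and 1582 to 5901 over both treatments (3421). The share of called probe sets that were higher depended on scaling, at 41.9% in OE cold and 43.6% in ZH11 cold, but 58.4% and 63% after median centring. After cold it was 62.2%, and 53.3% and 47.3% after quantile normalization and median centring. For the interaction it was 64.2%, and 52.1% after median centring, and over both treatments 58.9% and 47.8%. Signals near the array medians (27.2 to 28.2) limit what the dim probe sets can show.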

Other observations

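MT4C (LOC4352582), a metallothionein gene outside the listed names and chosen here after its values were seen, lies beside MT4A in the reference gene table, with 1 gene between them. Its probe set had signals of 50.3 and 29.9 in OE cold, 36.4 and 32.5 in OE normal, 164 and 110 in ZH11 cold, and 132 and 251 in ZH11 normal. All OE arrays lay below all ZH11 arrays, as for MT1B, and the OE signals were near the array medians. The OE minus ZH11 log2 difference of MT4C was -1.45 ± 0.27 after cold (limma adjusted p = 0.00784) and -1.98 ± 0.27 before cold (adjusted p = 0.00633). After cold the call was lost without ZH11 cold replicate 1 (0.0853) or OE cold replicate 2 (0.0531), and before cold without OE normal replicate 2 (0.0723). Over both treatments the difference was -1.71 ± 0.19 (adjusted p = 0.00064) and was called in all 17 alternative fits, at -2.07 with a pseudocount of 1 and -1.14 with 64. MT4A, its neighbour, was 0.21 ± 0.07 higher in OE over both treatments without passing (adjusted p = 0.0894). The cold change of MT4C was 0.13 ± 0.27 in OE (adjusted p = 0.713) and -0.40 ± 0.27 in ZH11 (adjusted p = 0.222). In ZH11 it was -0.83 (adjusted p = 0.019) without ZH11 normal replicate 1.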
